A study of Homo sapiens with 12 samples.

Results

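The response of control-transfected HCT116 cells to doxorubicin is described here over 14447 of the 57908 loci in the deposited table. Each reached 1 FPKM in 2 or more of the 4 libraries of these cells, where FPKM is the fragment count scaled to transcript length and to the library's mapped fragments. HCT116 is an established human colorectal carcinoma line, and every sample has the genotype label WT. The cells had received a control plasmid, which the sample titles call GFP and the design text an empty vector. A day later the culture was divided into 2 portions, of which one was given 1000 nM doxorubicin and the other PBS, each for 24 h. Messenger RNA was sequenced in 2 libraries of doxorubicin-treated GFP cells and 2 libraries of PBS-treated GFP cells, so all 4 libraries share the control plasmid. The other 8 libraries come from cells that had received the plasmid NSE4A-flag (called NSE4 cells) or SMC5-flag (called SMC5 cells), with doxorubicin or PBS, and serve here to set the spread and as other backgrounds.

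Doxorubicin is an anthracycline that slides between DNA bases and traps topoisomerase II on cut DNA, which leaves double-strand breaks. Damaged cells stabilise p53, a transcription factor that HCT116 cells carry in its unaltered form and that switches on genes of cell cycle arrest, cell death, repair and antioxidant defence. Its ubiquitin ligase MDM2 is one of its own targets and closes a feedback loop.

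The spacing of low FPKM values put the depth roughly at 15 and 14 M fragments in the doxorubicin libraries, against 18 and 13 M in the PBS libraries. These depths are uncertain, because only 37.8 to 44.8% of the low values lay within 0.1 of a whole fragment. Between 23635 and 25566 loci were above 0 in each of these libraries. One locus of mitochondrially encoded genes held 20.2 and 18.8% of the summed FPKM in the doxorubicin libraries and 20.9 and 16.6% in the PBS libraries. The epithelial markers EPCAM, KRT8, KRT18, KRT19 and CDH1 lay at 25.98 FPKM or more in each of the 4 libraries. Of these, KRT19 shares its locus with KRT15 and KRT18 with AC107016.2. CDX2, an intestinal transcription factor, lay between 2.997 and 4.992 FPKM, while the CEACAM5 locus, which colon epithelium also expresses, lay under 1 FPKM in all 4 libraries. CDH17, an intestinal cadherin, was at 0 and 0.198 FPKM in the doxorubicin libraries and 0.243 and 1.53 FPKM in the PBS libraries. All 5 endothelial markers with a locus, 6 of 8 leukocyte markers and 5 of 8 fibroblast markers lay under 1 FPKM in all 4 libraries. Of the other leukocyte and fibroblast markers, CD14, CD68 and PDGFRA share their loci with other genes. PDGFRB was at 1.21 and 0.855 FPKM in the doxorubicin libraries and 0.0338 and 0.0398 FPKM in the PBS libraries. COL1A1 was at 16.1 and 27.0 FPKM in the doxorubicin libraries and 17.9 and 19.4 FPKM in the PBS libraries.

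Doxorubicin changed about 1 locus in 3. In limma's test on log2(FPKM + 1), with p-values adjusted over 15833 loci and a threshold of 0.05, 2616 of the 14447 loci rose (18.1%) and 2210 fell (15.3%), which makes 33.4% called, against 31.1% of all loci tested. An unadjusted p under 0.05 was reached by 6504 loci. Counts within the gene lists are to be read beside the 18.1% that rose and the 15.3% that fell over the 14447 loci. The words rose, fell and called refer to the adjusted p throughout, and log2 changes are doxorubicin minus PBS on the log2(FPKM + 1) scale, which understates changes of loci with a low FPKM. The labels do not say whether a group's 2 libraries stem from separate cultures, and the p-values therefore reflect no more than how these samples spread, and that spread may be technical.

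Most changes were small. Called rises had a median log2 change of 0.77 and called falls of −0.69, and 775 loci rose (5.36%) and 463 fell (3.2%) by at least 2-fold, against 5.0 and 2.96% of all loci tested. At least 4-fold changes were 87 rises and 24 falls, and at least 8-fold changes were 13 rises and 3 falls. The middle of the distribution hardly moved, with a median log2 change of 0.02 over all 14447 loci and 5th and 95th percentiles of −0.89 and 1.07. At 1 FPKM or more, 12507 of the loci were present in all 4 libraries. A further 542 reached that level in both doxorubicin libraries and neither PBS library and 288 in both PBS libraries and neither doxorubicin library. These loci became members only through the group where they are higher, which fixes their direction. Of them 335 and 125 were called and are part of the rises and falls counted above. The 2 groups did not overlap at 9909 loci (68.6%). With 2 libraries a group, groups often part without any drug effect, so this share does not measure the response. It was not counted over all loci tested.

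The counts rest in part on single libraries. Called rises numbered 1402 without doxorubicin replicate 2, 1534 without PBS replicate 1 and 1701 without PBS replicate 2, and called falls 1391 without doxorubicin replicate 1, 1463 without PBS replicate 1 and 1222 without PBS replicate 2. Rises outnumbered falls here, but not under quantile normalization (2656 rises and 2774 falls among the members), under median-of-ratios scaling (2641 and 2666) or without doxorubicin replicate 2 (1402 and 1504).

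The 15 protein-coding genes with the largest rises are described first, out of called genes whose groups do not overlap. KRT80, a type II epithelial keratin, was at 15.1 and 21.7 FPKM in the doxorubicin libraries and 1.5 and 1.541 FPKM in the PBS libraries (log2 change 2.92, SE 0.18, adjusted p = 5.33e-05). LGALS7B, the epidermal lectin galectin-7, was at 18.4 and 22.8 FPKM with doxorubicin and 1.67 and 1.33 FPKM with PBS (3.11, SE 0.21). Both doxorubicin libraries lay far above both PBS libraries for each of these genes, but groups without overlap were a condition of the choice. S100A2, a calcium-binding protein of basal epithelium and a known p53 target, was at 179.9 and 159.5 FPKM with doxorubicin and 26.4 and 23.4 FPKM with PBS (2.72, SE 0.21, adjusted p = 9.88e-05). LCE1F and LCE1C, late cornified envelope genes, were listed at 0 in both PBS libraries and at 4.61 and 8.74 FPKM and 5.01 and 5.16 FPKM in the doxorubicin libraries.

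The same 15 hold a channel, a pump regulator and enzymes. AQP3, a water and glycerol channel of epithelial membranes, was at 119.0 and 159.2 FPKM with doxorubicin and 17.0 and 19.6 FPKM with PBS (log2 change 2.85, SE 0.16, adjusted p = 3.52e-05). FXYD3, a regulator of the sodium-potassium pump, was at 42.9 and 61.8 FPKM with doxorubicin and 5.61 and 8.92 FPKM with PBS (2.70, SE 0.21). PRODH, the mitochondrial proline dehydrogenase and a p53-induced gene, was at 25.3 and 35.1 FPKM with doxorubicin and 3.29 and 4.72 FPKM with PBS (2.64, SE 0.19). The groups were well apart in all 3 genes, where the choice already required no overlap. CYP4F2, a fatty acid hydroxylase, and EMX1, a homeobox gene of the forebrain, rose by 2.69 and 2.74 on the log2 scale.

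GALR2, a receptor for the peptide galanin, was at 9.06 and 9.58 FPKM with doxorubicin and 0.546 and 0.228 FPKM with PBS (log2 change 2.90, SE 0.19, adjusted p = 6.15e-05). GAST, which encodes the hormone gastrin, was at 13.2 and 19.2 FPKM with doxorubicin and 0.502 and 3.55 FPKM with PBS (2.70, SE 0.47, adjusted p = 0.00388). On the log2 scale its PBS libraries lay further apart than its doxorubicin libraries. The remaining members of the 15 were PGF, AKR1B10 and CDIP1, a VEGF family ligand, an aldo-keto reductase and a p53-responsive death gene, with log2 changes of 3.48, 3.38 and 3.17.

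Among the 15 largest falls, NR2F1, an orphan nuclear receptor of the COUP-TF family, was at 12.1 and 8.90 FPKM in the doxorubicin libraries and 46.1 and 49.8 FPKM in the PBS libraries (log2 change −2.10, SE 0.16, adjusted p = 8.31e-05). KITLG, the ligand of the KIT receptor, was at 40.6 and 43.3 FPKM with doxorubicin and 194 and 171 FPKM with PBS (−2.10, SE 0.12). ADAM19, a membrane metalloprotease, was at 7.49 and 8.52 FPKM with doxorubicin and 34.8 and 34.3 FPKM with PBS (−1.98, SE 0.14). In these 3 genes both doxorubicin libraries lay far under both PBS libraries, but groups without overlap were again a condition of the choice. EMP1, an epithelial membrane protein, and CPLX1, a complexin of vesicle fusion, fell by 1.97 and 2.00.

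HDAC4, a class IIa histone deacetylase, was at 3.78 and 2.46 FPKM with doxorubicin and 16.67 and 19.02 FPKM with PBS (log2 change −2.21, SE 0.42, adjusted p = 0.00554). Its log2 change was −0.91 in NSE4 cells and −0.17 in SMC5 cells, and neither difference from GFP cells passed the test. CLYBL, a mitochondrial citramalyl-CoA lyase, was at 2.42 and 2.996 FPKM with doxorubicin and 14.5 and 16.7 FPKM with PBS (−2.17, SE 0.14, adjusted p = 5.39e-05). HDAC4 and CLYBL are long genes, spanning 353 and 290 kb in the annotation. PDSS2, a coenzyme Q synthesis gene of 307 kb, was at 3.15 and 3.05 FPKM with doxorubicin and 47.5 and 7.99 FPKM with PBS. Its adjusted p of 0.0377 became 0.163 without PBS replicate 1, 0.117 without doxorubicin replicate 1 and 0.132 without doxorubicin replicate 2. MALL, FGFBP1, RPL22L1, WNT16, FOS and KLF2 were also among the largest falls, at log2 changes between −3.47 and −1.97.

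**Figure D1:**
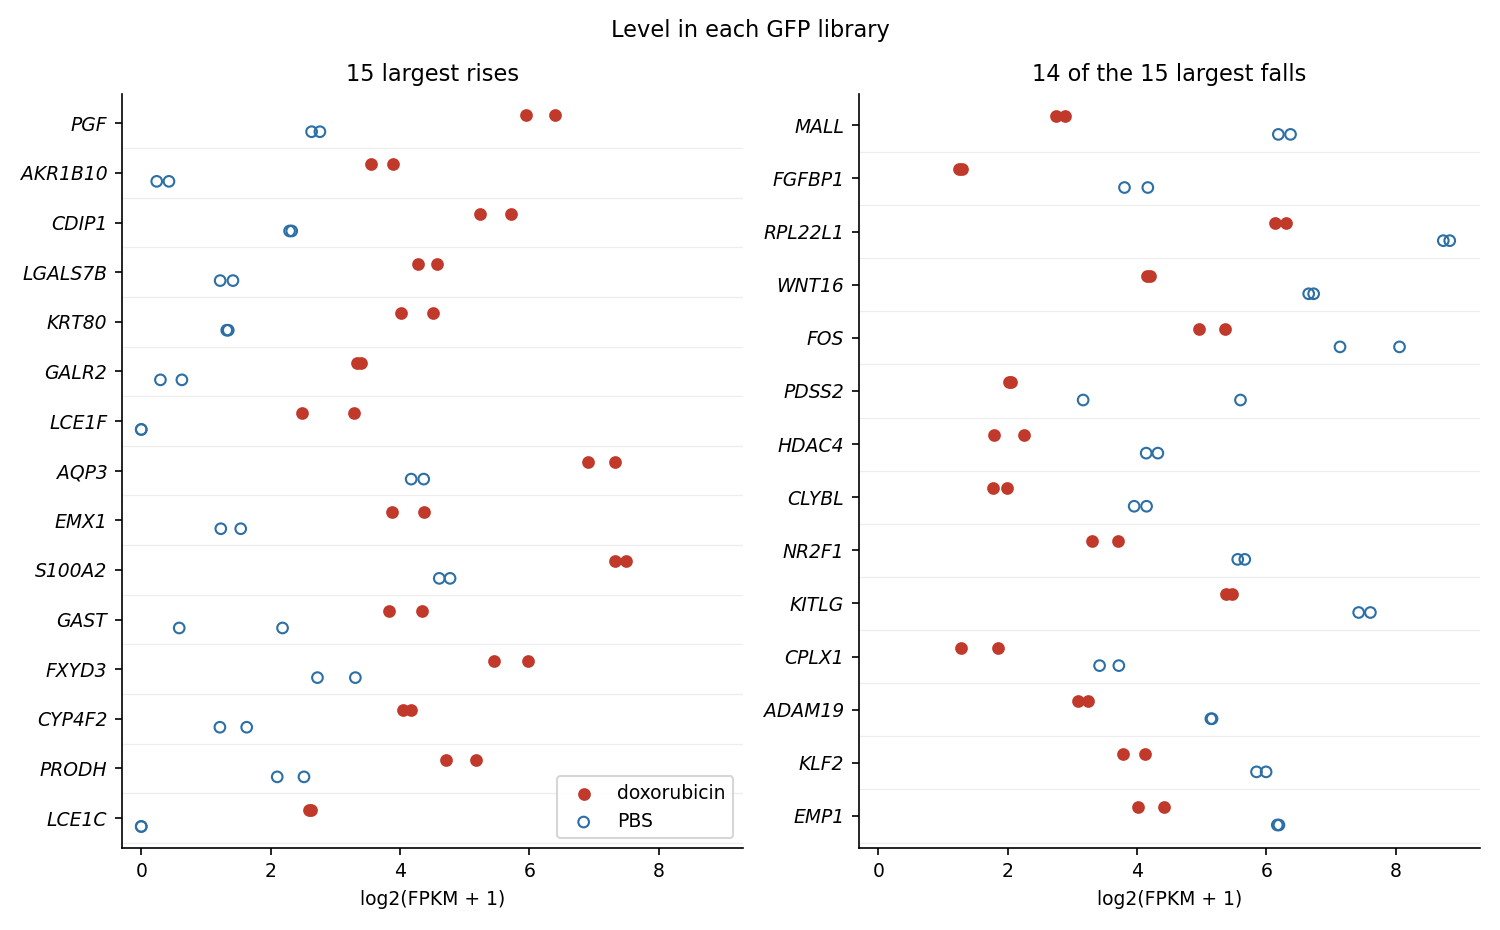
Level of the 15 protein-coding genes with the largest rises (left) and 14 of the 15 with the largest falls (right) in each GFP library, on the log2(FPKM + 1) scale; filled red points are the 2 doxorubicin libraries and open blue points the 2 PBS libraries. The genes were chosen for groups that do not overlap, and PDSS2 and GAST show the widest gaps between their PBS libraries.

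Of 1630 loci of long noncoding RNAs 253 rose and 156 fell (15.5 and 9.57%), both shares under the 18.1 and 15.3% of all members. Among members under 2 FPKM 14.8% rose and 6.76% fell, and the part that low level has in the noncoding shares was not tested. Rises outnumbered falls over all members too, though not under every scaling. Over the protein-coding loci the counts were 1950 rises and 1736 falls among 10371 (18.8 and 16.7%). In a list of 17 named long noncoding RNAs 8 rose and none fell at the threshold, with a median log2 change of 0.48, and the count was 5 without either doxorubicin library, 4 without PBS replicate 1 and 5 without PBS replicate 2. PINCR, a p53-induced noncoding RNA, was at 4.93 and 5.21 FPKM with doxorubicin and 0.230 and 0.239 FPKM with PBS (2.30, SE 0.14, adjusted p = 5.33e-05). OLMALINC, a long noncoding RNA, was at 8.01 and 8.09 FPKM with doxorubicin and 28.6 and 34.3 FPKM with PBS (−1.84, SE 0.12, adjusted p = 5.39e-05). Every doxorubicin library was apart from every PBS library in both, which was a condition for naming OLMALINC. H19, an imprinted RNA, had a log2 change of 4.37. The largest noncoding rises AC032044.2 and SNORD91A were listed at 0 in both PBS libraries, and AL138831.1 and AC233728.1 too, but their calls were lost without doxorubicin replicate 2 (adjusted p = 0.0765 and 0.141), without PBS replicate 1 (0.0579 and 0.147) and without PBS replicate 2 (0.0602 and 0.153), and that of AC233728.1 also without doxorubicin replicate 1 (0.157). Of the largest noncoding falls, AL441992.1 fell by 1.94 and kept its call with each library left out. AC016292.2, listed at 0 in both doxorubicin libraries and at 22.0 and 28.5 FPKM with PBS, lost its call with each of the 4 left out (adjusted p = 0.128 to 0.159). RN7SKP242, also listed at 0 with doxorubicin and at 10.4 and 3.20 FPKM with PBS, lost it without doxorubicin replicate 1 (0.0986), doxorubicin replicate 2 (0.108) and PBS replicate 1 (0.157), and AC145207.9 without PBS replicate 1 (0.0543) and PBS replicate 2 (0.109).

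Of the drug's own targets TOP2B fell. TOP2B, the topoisomerase II isoform of resting and dividing cells, was at 12.6 and 10.1 FPKM with doxorubicin and 23.4 and 24.7 FPKM with PBS, at a locus shared with MIR4442 (log2 change −1.03, SE 0.13, adjusted p = 0.000782). TOP2A, the isoform of dividing cells, was at 25.6 and 29.1 FPKM with doxorubicin and 34.1 and 34.5 FPKM with PBS (−0.32, SE 0.11, adjusted p = 0.0566). TOP1 was at 69.2 and 70.0 FPKM with doxorubicin and 79.9 and 78.4 FPKM with PBS (−0.18, SE 0.08, adjusted p = 0.12). The doxorubicin libraries were lower than both PBS libraries for all 3 genes, and TOP2B passed the test. NBN, a subunit of the break-sensing MRN complex, fell by 1.05 (SE 0.15). SPRTN, a protease that degrades proteins crosslinked to DNA, had a log2 change of 0.63 (adjusted p = 0.00918, but 0.0501 without doxorubicin replicate 2 and 0.0595 without PBS replicate 1). Of 12 genes of drug targets and adduct removal 3 rose and 2 fell (median 0.11), beside 18.1 and 15.3% of all members. The rises numbered 0 without doxorubicin replicate 2 or PBS replicate 1 and 1 without PBS replicate 2.

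Among 9 reductases that act on anthracyclines or related carbonyls 4 rose and 1 fell (median log2 change 0.23), and 2 rose without doxorubicin replicate 2 or without PBS replicate 1. CBR3, a carbonyl reductase, was at 5.27 and 5.92 FPKM with doxorubicin and 2.44 and 2.47 FPKM with PBS (0.93, SE 0.13, adjusted p = 0.00158). AKR7A2, an aldehyde reductase, fell by 0.69 (SE 0.10). ABCC5, a drug and nucleotide exporter, was at 14.8 and 16.2 FPKM with doxorubicin and 8.44 and 8.59 FPKM with PBS (0.79, SE 0.14, adjusted p = 0.00359). Groups did not overlap in these genes. Of 6 efflux genes 2 rose and 1 fell (−0.04), beside 18.1 and 15.3% of all members. The rises numbered 1 without doxorubicin replicate 2, PBS replicate 1 or PBS replicate 2. The fall, ABCC4, was by 0.64, and its adjusted p of 0.0106 became 0.0568 without doxorubicin replicate 1 and 0.0639 without PBS replicate 2.

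Of all the gene lists, 3 lists of p53 targets had the highest medians. In the growth arrest list 11 of 16 members rose and none fell at the threshold (median log2 change 1.01), in the death effector list 15 of 18 rose and 1 fell (1.17), and in the metabolic and antioxidant list 11 of 13 rose and none fell (1.21). The median over all 14447 loci was 0.02. With 1 library left out, 10 or 11, 12 to 14 and 8 to 10 members of these lists rose. The fallen death effector was PERP, a desmosomal protein named after its values were seen (−0.42), and its call was lost whichever of the 4 libraries was removed. The direction is no independent evidence, because the lists were drawn up with earlier results of these data known.

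The arrest genes with the largest changes encode brakes on proliferation. E2F7, a repressor of E2F target genes, was at 17.6 and 19.7 FPKM with doxorubicin and 3.73 and 3.56 FPKM with PBS (log2 change 2.08, SE 0.20, adjusted p = 0.000263). BTG2, an antiproliferative adaptor of mRNA deadenylation, was at 88.0 and 105 FPKM with doxorubicin and 19.5 and 25.1 FPKM with PBS (2.07, SE 0.14, adjusted p = 6.15e-05). TP53INP1, a p53-induced nuclear protein, was at 64.0 and 70.3 FPKM with doxorubicin and 14.4 and 16.2 FPKM with PBS (2.06, SE 0.13). Each was far higher in both doxorubicin libraries, with little spread inside a group. CDKN1A, the p21 inhibitor of cyclin-dependent kinases, had a log2 change of 1.61. GADD45A, a damage-inducible stress protein, was at 134 and 172 FPKM with doxorubicin and 85.1 and 119 FPKM with PBS and did not pass (0.59, adjusted p = 0.0735).

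The death effector list included surface receptors and adaptors, not all of which promote death. TNFRSF10C, a decoy receptor for the death ligand TRAIL, was at 28.1 and 31.2 FPKM with doxorubicin and 4.79 and 3.46 FPKM with PBS (log2 change 2.59, SE 0.14, adjusted p = 3.52e-05). PIDD1, the scaffold of the caspase-2 activating PIDDosome, was at 60.1 and 80.3 FPKM with doxorubicin and 15.5 and 13.8 FPKM with PBS (2.17, SE 0.21, adjusted p = 0.0003). Both groups were well apart. In the metabolic list GPX1, a glutathione peroxidase that removes hydrogen peroxide, was at 1311 and 1486 FPKM with doxorubicin and 356 and 390 FPKM with PBS (1.90, SE 0.10, adjusted p = 3.41e-05). TIGAR and SESN1, a brake on glycolysis and a sestrin, had log2 changes of 2.58 and 2.25.

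The feedback genes of p53 did not move as a block. PPM1D, the phosphatase WIP1 that turns the damage response off, was at 45.9 and 59.5 FPKM with doxorubicin and 16.8 and 18.5 FPKM with PBS (log2 change 1.52, SE 0.17, adjusted p = 0.000539). The locus of MDM2 was at 315.6 and 353.5 FPKM with doxorubicin and 83.3 and 63.4 FPKM with PBS (2.18, SE 0.17). Both groups were well apart in these genes. Of the 10 genes in this list 4 rose and 2 fell (median 0.14), and with any 1 library left out 2 rose and 0 or 1 fell.

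Excision repair and translesion synthesis genes showed some of the largest repair changes. RRM2B, the p53-induced small subunit of ribonucleotide reductase, was at 117.1 and 116.6 FPKM with doxorubicin and 28.0 and 27.4 FPKM with PBS (log2 change 2.04, SE 0.14, adjusted p = 6.4e-05). DDB2, the damage-recognition subunit that marks ultraviolet lesions, was at 138.5 and 125.4 FPKM with doxorubicin and 31.4 and 38.4 FPKM with PBS (1.89, SE 0.12, adjusted p = 6.15e-05). The library pairs of each group nearly coincided for RRM2B. Of 19 members of this list 8 rose and 2 fell (median 0.39), and 5 rose without doxorubicin replicate 2. PCNA, the replication clamp, had a log2 change of 2.20.

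Among called protein-coding genes whose locus carries a single symbol, DDB2 was the only one in which a search found a p53 response element near a start. The search took windows of 250 bases before to 50 after each RefSeq start (GRCh38.p14) on both strands and allowed up to 13 bases between the repeats of the element. It matched 10 of 35116 windows (0.0285%). Of the 10402 windows of protein-coding members at single-symbol loci it matched 2, those of DDB2 and MCC. The other matching windows were not compared with the remaining loci. MCC, a colorectal tumour suppressor candidate, did not pass (log2 change 0.16). The DDB2 stretch lies at chr11:47214949-47214999 on the plus strand, with the element in capitals, beginning just inside one of its annotated transcripts. A match is a description of the letters, and p53 binding was not measured here.
DDB2: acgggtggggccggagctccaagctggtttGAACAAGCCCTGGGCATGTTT

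The counts of recombination and checkpoint genes depend on single libraries. Of 25 recombination and Fanconi genes 12 rose and 3 fell (median log2 change 0.51), but 2 rose without doxorubicin replicate 2 and 2 without PBS replicate 2, and the falls numbered 0 without doxorubicin replicate 1 or PBS replicate 1 and 1 without PBS replicate 2. RAD51C, a recombination factor, had a log2 change of 2.07 and kept its call with each library left out. Of 13 damage checkpoint genes 5 rose and none fell at the threshold (median 0.21). The rises numbered 3 without doxorubicin replicate 1, 1 without doxorubicin replicate 2, 2 without PBS replicate 1 and 3 without PBS replicate 2. RAD9A, a subunit of the checkpoint clamp, was at 35.7 and 41.9 FPKM with doxorubicin and 14.7 and 21.2 FPKM with PBS (1.09, SE 0.20, adjusted p = 0.00448). The kinase genes ATM, ATR and CHEK2 had log2 changes of −0.06, 0.21 and −0.25 and did not pass.

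Of 40 replication genes 16 rose, 1 fell and 23 did not pass (median log2 change 0.52), and 10 rose without doxorubicin replicate 2 and 10 without PBS replicate 1. The falls numbered 0 without doxorubicin replicate 1 or PBS replicate 2 and 2 without doxorubicin replicate 2. GINS4, a subunit of the replicative helicase, was at 44.3 and 51.1 FPKM with doxorubicin and 13.9 and 21.4 FPKM with PBS (1.41, SE 0.25, adjusted p = 0.00414). GINS3, its partner subunit, was at 11.01 and 11.5 FPKM with doxorubicin and 4.69 and 4.23 FPKM with PBS (1.17, SE 0.15, adjusted p = 0.000925). Both groups were apart in each. Of 27 genes of cyclin D, CDK and RB control 10 rose and 5 fell (median 0.26), with 5 rises without doxorubicin replicate 2 or PBS replicate 1, and 3 falls without either doxorubicin library and 2 without PBS replicate 2. CDKN2A, which encodes the inhibitors p16 and ARF, was at 17.2 and 20.6 FPKM with doxorubicin and 50.1 and 52.4 FPKM with PBS (−1.40, SE 0.19, adjusted p = 0.00136). E2F1, the S phase transcription factor, had a log2 change of 1.51 (adjusted p = 0.0171), which did not pass without doxorubicin replicate 2 (0.0993), PBS replicate 1 (0.0659) or PBS replicate 2 (0.0792).

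Of 59 mitosis genes 8 rose and 11 fell, with a median log2 change of 0.05, shares near the 18.1 and 15.3% of all members. ZWILCH, a kinetochore protein of the spindle checkpoint, was at 20.2 and 18.4 FPKM with doxorubicin and 6.82 and 7.97 FPKM with PBS (1.28, SE 0.12, adjusted p = 0.000263). The locus of UBE2S, the ubiquitin chain elongating enzyme of the anaphase-promoting complex, was at 68.8 and 94.5 FPKM with doxorubicin and 148 and 187 FPKM with PBS (−1.03, SE 0.19, adjusted p = 0.00502). Neither gene's groups overlapped. The rises numbered 2 without doxorubicin replicate 2, 4 without PBS replicate 1 and 1 without PBS replicate 2, and the falls 6 and 7 without doxorubicin replicates 1 and 2 and 4 and 6 without PBS replicates 1 and 2. Adjusted for GC content, 14 rose. The letters TTTGAA were found on either strand in 56.9% of 58 RefSeq start windows of these genes and CCAAT in 77.6%. Over the windows of protein-coding members at single-symbol loci the shares were 10.2 and 34.3%. Histone and chromatin genes gave a few rises: H2AFJ, a histone H2A variant, rose by 1.66 (SE 0.12, adjusted p = 8.08e-05), ASF1B, a histone chaperone of S phase, by 1.5 (SE 0.23), and EZH2, the methyltransferase of Polycomb repression, by 1.39 (SE 0.15).

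Cytosolic ribosomal protein genes fell nearly as a whole. Of 70 members 62 fell and 2 rose, with a median log2 change of −0.72. Their median FPKM was 1000 and 1010 in the doxorubicin libraries, against 1640 and 1760 in the PBS libraries. Their share of the summed FPKM was 9.9 and 9.75% with doxorubicin and 14.7 and 15.7% with PBS. In bulk RNA a lower level in each cell and fewer cells of a kind cannot be told apart. Between 53 and 57 members fell with 1 library left out and 43 under quantile normalization.

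RPL22L1, a paralogue of RPL22 that can replace it, was at 78.1 and 69.0 FPKM with doxorubicin and 456 and 426 FPKM with PBS (log2 change −2.57, SE 0.10, adjusted p = 1.14e-05). RPL10A, a large-subunit protein, was at 408 and 443 FPKM with doxorubicin and 1086 and 1111 FPKM with PBS (−1.37, SE 0.09). The locus of RPL3, which also holds SNORD43 and SNORD83B, was at 628 and 642 FPKM with doxorubicin and 1774 and 1984 FPKM with PBS (−1.56, SE 0.09). All 3 fell well beyond the spread inside a group. The risen members, named after their values were seen, were RPS27L and RPL3L. RPS27L, a paralogue of RPS27 and a known p53 target, was at 270.6 and 278.0 FPKM with doxorubicin and 147 and 131 FPKM with PBS (0.98, SE 0.09, adjusted p = 0.0002). RPL3L, a paralogue of RPL3 in muscle, was at 1.02 and 2.71 FPKM with doxorubicin and 0.240 and 0.227 FPKM with PBS (1.15, adjusted p = 0.0181). It lies near the 1 FPKM floor and its doxorubicin libraries were far apart. The 2 rises of this list were not both kept in every fit with a library left out.

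Messenger RNAs of ribosomal proteins are known for a run of pyrimidines at their first base, through which growth signals control their translation. A run of at least 6 pyrimidines over the annotated first base was found in 43 of the 73 RefSeq windows of these genes (58.9%), in 7 of 12 windows of small nucleolar RNA host genes (58.3%), in 5 of 66 windows of mitochondrial ribosomal protein genes (7.58%) and in 6.87% of the 10402 windows of protein-coding members. All 36 ribosomal protein members with a single window and such a run fell, with a median log2 change of −0.84. Of the 10 with a single window and no such run 6 fell and 1 rose (−0.58). Outside this family, the 335 protein-coding members with such a start and a single window had 50 rises and 85 falls (14.9 and 25.4%), and the 4601 without it 930 and 731 (20.2 and 15.9%). The part that abundance has in this difference was not tested. The starts of RPL22L1 (chr3:170870176-170870215, minus strand), RPS6 (chr9:19380217-19380256, minus strand), SNHG5 (chr6:85678714-85678753, minus strand) and RPS27L (chr15:63157458-63157497, minus strand) are shown from RefSeq (GRCh38.p14), 20 bases to each side of the start, as 3 that fell and 1 that rose. Capitals mark the run over the first base, and RPS27L has none.
RPL22L1: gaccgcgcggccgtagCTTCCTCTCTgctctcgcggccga
RPS6: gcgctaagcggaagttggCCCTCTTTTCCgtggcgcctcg
SNHG5: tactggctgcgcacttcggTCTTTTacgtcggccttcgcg
RPS27L: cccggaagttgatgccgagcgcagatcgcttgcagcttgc

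Small nucleolar RNA host genes followed the same direction. Of 16 members 9 fell and 2 rose (median log2 change −0.58), and 0 rose without doxorubicin replicate 1 or PBS replicate 1 and 1 without doxorubicin replicate 2 or PBS replicate 2. SNHG5 was at 189 and 199 FPKM with doxorubicin and 356 and 388 FPKM with PBS (−0.94, SE 0.14, adjusted p = 0.00192). RPS6, a small-subunit protein printed for its start, was at 452 and 463 FPKM with doxorubicin and 821 and 888 FPKM with PBS (−0.90, SE 0.08). Both were lower in each doxorubicin library. Mitochondrial ribosomal proteins did not follow: of 57 members 5 rose and 6 fell, with a median of 0.01. Their rises numbered 1 without doxorubicin replicate 2, 3 without PBS replicate 1 and 3 without PBS replicate 2. Under quantile normalization 10 rose and 11 fell, and with GC content adjusted 10 and 14. MRPL24, a mitochondrial large-subunit protein, fell by 1.39 (SE 0.13, adjusted p = 0.00021), and MRPL39 rose by 1.10 (SE 0.19). Of 42 nuclear genes of the respiratory chain 1 rose and 11 fell (median −0.10), and 7 fell without doxorubicin replicate 1 and 6 without PBS replicate 2. The rises numbered 3 without doxorubicin replicate 1, 0 without each of the others, 3 under quantile normalization and 5 with GC content adjusted. COX7C, a cytochrome oxidase subunit at a locus shared with MIR3607, was at 553 and 550 FPKM with doxorubicin and 933 and 942 FPKM with PBS (−0.76, SE 0.07).

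Falls were more frequent among abundant loci in general. Of the 891 members with a mean of at least 100 FPKM 147 rose and 327 fell (16.5 and 36.7%), and without the ribosomal proteins 146 of 824 rose and 265 fell (17.7 and 32.2%). Between 20 and 100 FPKM 19.5% rose and 17.2% fell, and under 2 FPKM 14.8% rose and 6.76% fell. As FPKM is relative to a library's total, a change of the most abundant loci and an opposite change of all others cannot be told apart.

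**Figure D2:**
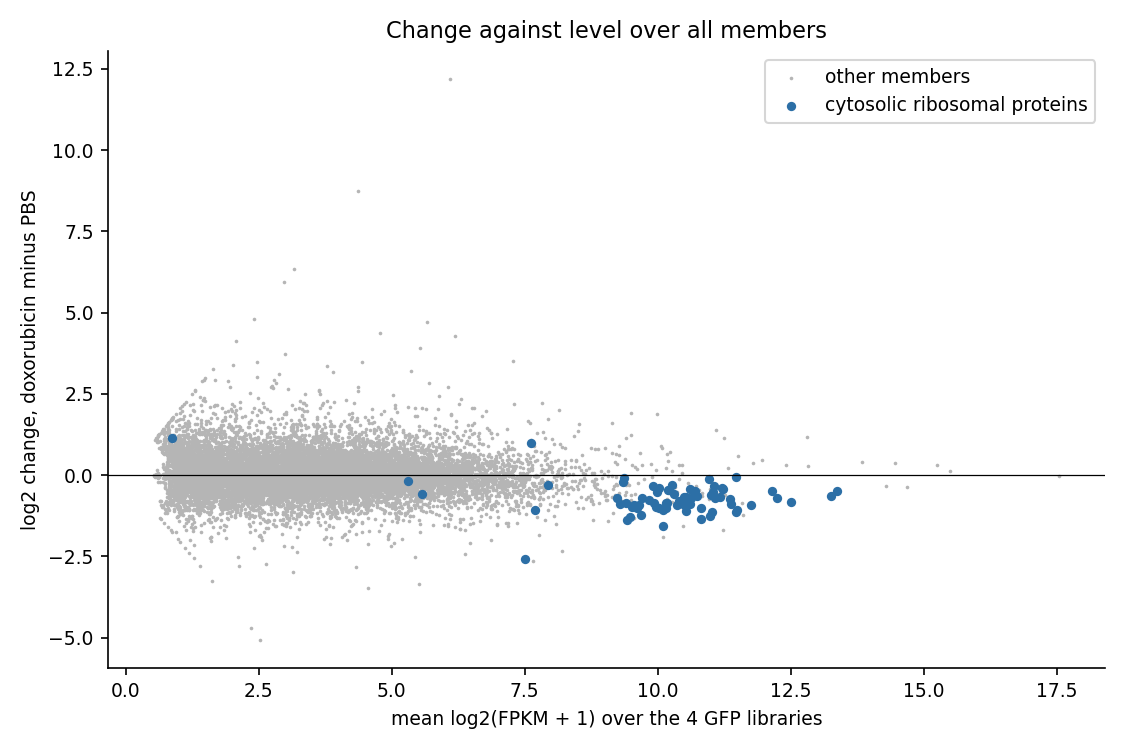
Log2 change of each member, doxorubicin minus PBS, against its mean level over the 4 GFP libraries on the log2(FPKM + 1) scale, with the 70 cytosolic ribosomal protein genes in blue and the other members in grey. Most ribosomal protein genes lie at the abundant end and under the zero line.

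Of 16 cholesterol synthesis genes 12 fell and none rose at the threshold (median log2 change −0.88), and of 22 genes of sterol uptake, its regulators and fatty acid synthesis 14 fell and 2 rose (−0.77). With 1 library left out, 8 to 11 and 13 or 14 fell, and 1 of the second group rose.

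HMGCS1, the synthase that makes HMG-CoA for this pathway, was at 42.69 and 39.04 FPKM with doxorubicin and 122.9 and 127.5 FPKM with PBS (log2 change −1.59, SE 0.10, adjusted p = 5.33e-05). The locus of SCD, the desaturase that makes oleic acid, was at 144 and 117 FPKM with doxorubicin and 654 and 663 FPKM with PBS (−2.34, SE 0.12, adjusted p = 2.68e-05). The PBS level exceeded the doxorubicin level in every library pair of these genes. INSIG1, the sterol-regulated anchor that holds SREBP in the endoplasmic reticulum, was at 46.1 and 39.9 FPKM with doxorubicin and 121 and 154 FPKM with PBS (−1.65, SE 0.17, adjusted p = 0.000324). SREBF2, the master regulator of these genes, fell by 0.87. The risen pair, named after its values were seen, was ABCA1, a cholesterol exporter, and FADS1, a fatty acid desaturase, with log2 changes of 0.99 and 0.40.

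Of 21 glycolysis genes 8 fell and 2 rose (median log2 change −0.32). The falls numbered 5 without doxorubicin replicate 2, PBS replicate 1 or PBS replicate 2, and the rises 0 without doxorubicin replicate 2 or PBS replicate 2 and 1 without PBS replicate 1. ENO1, the abundant enolase, was at 944 and 908 FPKM with doxorubicin and 1633 and 1628 FPKM with PBS (−0.82, SE 0.10, adjusted p = 0.000795). LDHB, a lactate dehydrogenase subunit, fell by 0.77 (SE 0.09). ME1, the malic enzyme that supplies NADPH, was at 5.32 and 4.88 FPKM with doxorubicin and 14.1 and 12.8 FPKM with PBS (−1.24, SE 0.11, adjusted p = 0.000164). The 3 enzymes were lower in both doxorubicin libraries.

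Growth factor signalling genes were split. Of 20 ERK feedback and output genes 6 rose and 7 fell (median log2 change −0.29), with 4 to 6 rises and 5 to 7 falls when 1 library was left out. DUSP6, the phosphatase that switches ERK off, was at 61.4 and 60.6 FPKM with doxorubicin and 165 and 161 FPKM with PBS (−1.40, SE 0.10, adjusted p = 8.06e-05). PHLDA1, an ERK-induced protein, was at 38.9 and 33.7 FPKM with doxorubicin and 107 and 106 FPKM with PBS (−1.53, SE 0.10). ETV1, an ETS transcription factor, fell by 1.48 (SE 0.17). These fell together in every library pair, while HBEGF, a ligand of the EGF receptor, was at 22.3 and 25.2 FPKM with doxorubicin and 6.71 and 8.67 FPKM with PBS (1.52, SE 0.16, adjusted p = 0.000454). EGFR, its receptor, was at 11.6 and 9.12 FPKM with doxorubicin and 17.72 and 18.98 FPKM with PBS (−0.78, SE 0.14, adjusted p = 0.00396).

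Immediate early genes divided evenly, with 9 rises and 9 falls among 28 members and a median log2 change of −0.05. The rises numbered 4 without either doxorubicin library and 5 without either PBS library, and the falls 5 without PBS replicate 2. KLF2, a Krüppel-like factor, was at 12.7 and 16.4 FPKM with doxorubicin and 56.6 and 62.9 FPKM with PBS (−1.97, SE 0.25, adjusted p = 0.000813). CTGF, a matricellular protein and YAP target, was at 27.0 and 30.6 FPKM with doxorubicin and 4.81 and 7.37 FPKM with PBS (2.09, SE 0.20, adjusted p = 0.000239). The 2 genes moved in opposite directions without overlap. GDF15, a stress cytokine of the TGF-beta family and a known p53 target, was at 1731 and 2170 FPKM with doxorubicin and 512 and 548 FPKM with PBS (1.87, SE 0.20, adjusted p = 0.000398). ID3, an inhibitor of helix-loop-helix factors, fell by 0.97 (SE 0.14), and TGFB3, a TGF-beta ligand, rose by 1.34 (SE 0.19).

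Secreted and immune genes changed in part. Of 22 secreted inflammatory genes 8 rose and 3 fell (median log2 change 0.23), and 5 rose without PBS replicate 1. IL18, an inflammasome cytokine, was at 15.01 and 16.21 FPKM with doxorubicin and 57.7 and 56.5 FPKM with PBS (−1.81, SE 0.10, adjusted p = 3.41e-05). Its groups did not overlap. TMEM173, the DNA-sensing adaptor STING, was at 30.2 and 43.5 FPKM with doxorubicin and 18.6 and 18.4 FPKM with PBS (0.94, SE 0.18, adjusted p = 0.00564), and TLR3, a receptor for double-stranded RNA, rose by 1.22 (SE 0.22). Of 22 interferon-stimulated genes 6 rose and 3 fell (median 0.17), beside 18.1 and 15.3% of all members. The rises numbered 3 without doxorubicin replicate 2, and the falls 1 without doxorubicin replicate 1 or PBS replicate 2. OASL, an antiviral protein, rose by 1.30 (SE 0.15, adjusted p = 0.000556), and IFI44, an interferon-induced gene, fell by 0.97 (SE 0.16). ISG20, an exonuclease, rose by 0.93, and its adjusted p of 0.0108 became 0.0631 without doxorubicin replicate 2 and 0.0688 without PBS replicate 1. Of 20 interferon and sensor genes 8 rose and 3 fell (median 0.28). The rises numbered 5 without PBS replicate 1, and the falls 1 without doxorubicin replicate 1, PBS replicate 1 or PBS replicate 2.

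Single stress response genes changed by more than their lists. HSPB8, a small heat shock protein that works with autophagy, was at 12.9 and 14.8 FPKM with doxorubicin and 4.43 and 4.08 FPKM with PBS (log2 change 1.5, SE 0.13, adjusted p = 0.000155). SESN2, a sestrin that both p53 and the integrated stress response induce, was at 30.6 and 37.3 FPKM with doxorubicin and 7.51 and 9.72 FPKM with PBS (1.87, SE 0.18, adjusted p = 0.000298). GARS, the glycyl-tRNA synthetase, was at 19.5 and 24.8 FPKM with doxorubicin and 62.3 and 55.7 FPKM with PBS (−1.38, SE 0.13, adjusted p = 0.000263). Of 29 heat shock genes 11 rose and 6 fell (median −0.02), with 6 rises without doxorubicin replicate 2 and 7 without PBS replicate 1, and 10 falls under median-of-ratios scaling. Of 25 genes of the integrated stress response 5 rose and 4 fell (0.02), near the 18.1 and 15.3% of all members, with 3 rises without doxorubicin replicate 2 or PBS replicate 1. HMOX1, the heme oxygenase, rose by 0.94 (SE 0.15), and MAP1LC3B, the autophagosome protein LC3B, by 0.85 (SE 0.09).

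Epithelial genes changed in both directions. Of 10 keratins 6 rose and 3 fell (median log2 change 0.71), with 1 fall without doxorubicin replicate 2 or PBS replicate 2. KRT17, a keratin of injured epithelium, was at 3.86 and 5.00 FPKM with doxorubicin and 0.599 and 0.157 FPKM with PBS (1.99, SE 0.27, adjusted p = 0.00124). CA2, the carbonic anhydrase of differentiated colonocytes, was at 135 and 142 FPKM with doxorubicin and 23.9 and 25.1 FPKM with PBS (2.45, SE 0.10, adjusted p = 1.14e-05). VIL1, the microvillus protein villin, was at 1.20 and 2.43 FPKM with doxorubicin and 0.141 and 0.0531 FPKM with PBS (1.32, SE 0.24). Every doxorubicin library exceeded every PBS library in these 3 genes. Of 9 genes of intestinal differentiation 4 rose and 1 fell (0.22), and the fall, SOX9, did not pass without doxorubicin replicate 2 or either PBS library. Of 19 junction genes 2 rose and 7 fell (−0.14), with 4 falls without doxorubicin replicate 2 or PBS replicate 1, and 1 rise without doxorubicin replicate 1 or PBS replicate 2 and 0 without the others. TJP3, a tight junction scaffold, was at 24.1 and 24.3 FPKM with doxorubicin and 46.2 and 50.8 FPKM with PBS (−0.97, SE 0.10, adjusted p = 0.00033). ACTA2, smooth muscle actin, and THBS1, the matrix protein thrombospondin, rose by 2.03 (SE 0.11) and 1.32 (SE 0.13).

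Of 269 zinc finger genes 41 rose and 24 fell (median log2 change 0.11), beside 18.1 and 15.3% of all members. The rises numbered 21 without doxorubicin replicate 2, 22 without PBS replicate 1 and 24 without PBS replicate 2, and the falls 12 and 14 without doxorubicin replicates 1 and 2 and 13 and 11 without PBS replicates 1 and 2. ZNF440, a KRAB zinc finger gene, was at 26.4 and 32.6 FPKM with doxorubicin and 5.23 and 5.13 FPKM with PBS (2.29, SE 0.13, adjusted p = 3.74e-05). ZNF703, a transcriptional corepressor, was at 20.8 and 17.6 FPKM with doxorubicin and 4.49 and 3.80 FPKM with PBS (1.97, SE 0.16). Of 30 proteasome genes 2 rose and 4 fell (0.02), against 5 and 3 under quantile normalization, with 2 falls without doxorubicin replicate 2 or PBS replicate 2 and 1 rise without doxorubicin replicate 1, doxorubicin replicate 2 or PBS replicate 2. HEXIM1, the inhibitor of the elongation factor P-TEFb, rose by 0.72 (SE 0.09, adjusted p = 0.000808), and SRSF8 and SRSF5, splicing factors, by 1.32 (SE 0.13) and 0.64 (SE 0.08). Of 16 SR splicing factor genes 2 rose and 3 fell (−0.18), and the falls numbered 0 without doxorubicin replicate 1 or PBS replicate 2 and 1 without doxorubicin replicate 2 or PBS replicate 1. SRSF3 fell by 0.94, and its adjusted p of 0.0113 became 0.0695 without doxorubicin replicate 1, 0.0548 without PBS replicate 1 and 0.0541 without PBS replicate 2.

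**Figure D3:**
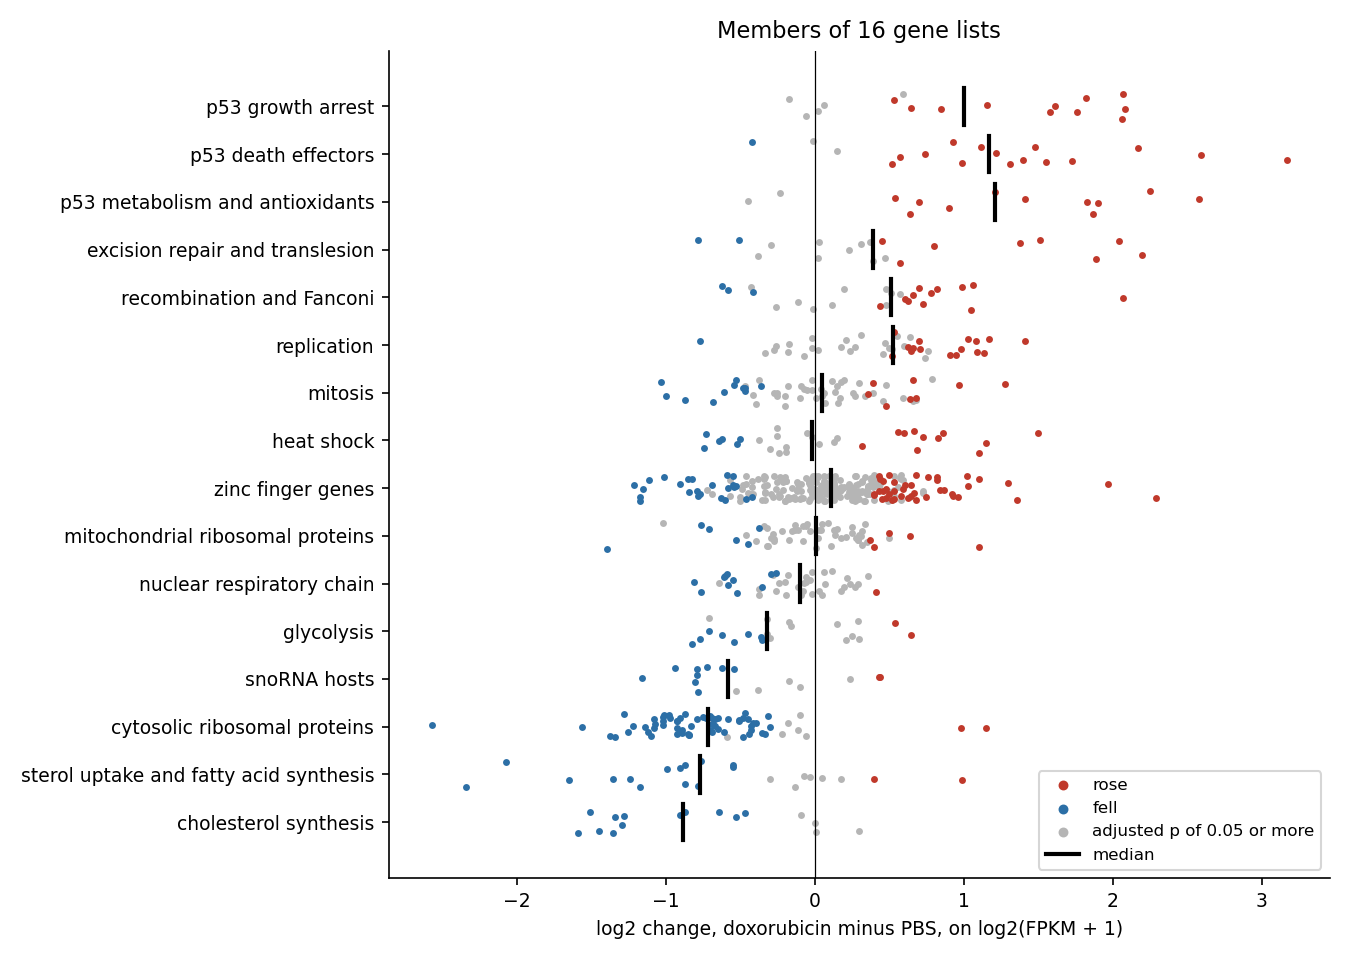
Log2 change, doxorubicin minus PBS on the log2(FPKM + 1) scale, of each member of 16 gene lists; red points rose, blue points fell, grey points had an adjusted p of 0.05 or more, and black bars are medians. The medians run between 1.21 for p53 metabolic and antioxidant genes and −0.88 for cholesterol synthesis genes.

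Falls were most frequent in the longest genes. The 8851 protein-coding members whose locus carries a single symbol used once were split by annotated length into 5 bins of nearly equal size. Coding members at loci of several symbols were left out. In the shortest bin, 0.312 to 11.2 kb, 26.9% rose and 14.6% fell, and in the longest, 100 to 2060 kb, 7.8% rose and 29.3% fell. Of the 308 genes of at least 300 kb 13 rose and 138 fell (4.22 and 44.8%), with a median log2 change of −0.53. Their median FPKM was 3.61 and 3.55 in the doxorubicin libraries and 5.82 and 5.66 in the PBS libraries.

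The shares that fell in the 3 bins between lay between 11.8 and 15.6%, so only the longest bin stood apart in falls. The shortest and the longest bin also differed within expression levels. Among genes of 1 to 5 FPKM 5.1% of the shortest and 23.8% of the longest bin fell, among those of 5 to 20 FPKM 9.16 and 29.4%, and above 20 FPKM 22.8 and 39.7%. Shorter genes are also richer in G and C, and after adjustment of each library for GC content 20.9% of the shortest bin, 31.0% of the longest and 45.5% of the genes of at least 300 kb fell. Across the 8851 genes, which share the same 4 libraries and are not independent, Spearman's rho of the log2 change with gene length was −0.237, and −0.19 with GC content adjusted. The longest bin had 519 falls, against 332 and 347 without doxorubicin replicates 1 and 2 and 335 and 313 without PBS replicates 1 and 2, while its 138 rises became 70 without doxorubicin replicate 2, 81 without PBS replicate 1 and 85 without PBS replicate 2. In the shortest bin the 476 rises became 288 without doxorubicin replicate 2 and 293 without PBS replicate 1, and the 259 falls 171 without doxorubicin replicate 1 and 135 without PBS replicate 2.

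**Figure D4:**
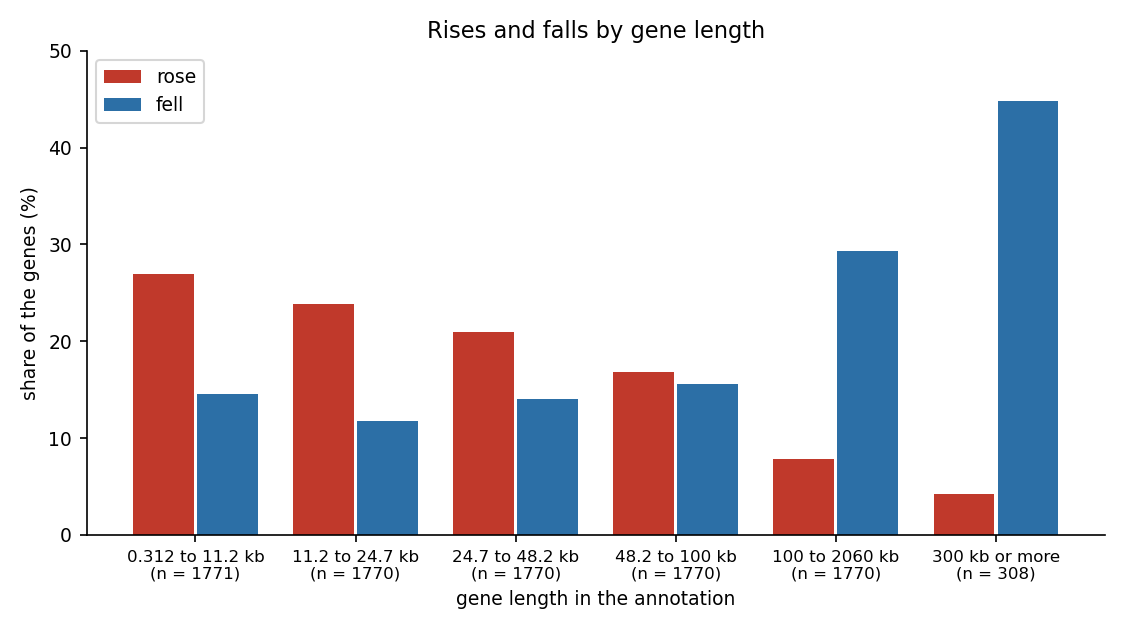
Share of protein-coding members at single-symbol loci that rose (red) and fell (blue) in each of 5 nearly equal bins of gene length in the annotation and, as a separate pair of bars, among the 308 genes of at least 300 kb. The share that fell is 29.3% in the longest bin and 44.8% above 300 kb, against 14.6% in the shortest bin.

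The response recurred in the other 2 backgrounds, which share no library with GFP cells. All groups share 1 estimate of the spread in the fit, so calls in different backgrounds are not independent. Of the 2616 risen loci 2579 had a positive log2 change in NSE4 cells (98.6%) and 2568 in SMC5 cells (98.2%), and 2006 and 1515 were called there. Over all members 16.9% rose in NSE4 cells and 11.6% in SMC5 cells. Of the 2210 fallen loci 2178 were negative in NSE4 cells and 2169 in SMC5 cells, and 1735 and 1374 were called. Over all members 2172 fell in NSE4 cells (15%) and 1554 in SMC5 cells (10.8%). The doxorubicin-treated SMC5 libraries counted as 1 sample, because they differed by less than the sampling noise. The median change of the risen loci was 0.77 in GFP cells and 0.69 in each other background. These loci were chosen by their calls in GFP cells, which by itself raises their GFP median. The medians therefore do not compare the strength of the responses. Over the 14447 loci, which are not independent replicates, Pearson's r of the changes was 0.808 with NSE4 cells and 0.785 with SMC5 cells.

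A test of the difference between the responses called 4 members against NSE4 cells (0.0277%, and 0.0316% of all loci tested) and 3 against SMC5 cells (0.0208%, and 0.0189% of all loci tested), while 380 and 357 had an unadjusted p under 0.05. Against NSE4 cells these were AC032044.2, SNORD91A, AC068580.1 and AC073107.2, which were listed at 0 in every PBS library of the 3 backgrounds and in both doxorubicin-treated NSE4 libraries. SNORD91A, a small nucleolar RNA, was listed at 69.2 and 53.3 FPKM in doxorubicin-treated GFP cells and 217 and 211 FPKM in doxorubicin-treated SMC5 cells. Against SMC5 cells AC073107.2 was called again, with SVIL-AS1, an antisense RNA, and the locus of AL360181.1 and BANF1P2. SVIL-AS1 was at 7.08 and 8.73 FPKM in doxorubicin-treated and 12.14 and 12.97 FPKM in PBS-treated GFP cells, against 117 and 134 FPKM in doxorubicin-treated and 10.7 and 13.2 FPKM in PBS-treated SMC5 cells. A listed 0 can be a failed estimate in such tables, and that was not tested. Groups listed at 0 throughout also add no spread, which lowers the SE behind such calls. Over all loci tested, 5 were called with a higher change in GFP than in NSE4 cells. They numbered 2 with a replicate block, with a pseudocount of 0.1 or with FPKM of at least 5. The 1 such locus against SMC5 cells was lost in each of these settings. Of the genes on the other plasmids, NSMCE4A had a log2 change of 0.28 (adjusted p = 0.154), and SMC5 was at 18.6 and 7.02 FPKM with doxorubicin and 33.5 and 8.76 FPKM with PBS, overlapping (adjusted p = 0.618).

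**Figure D5:**
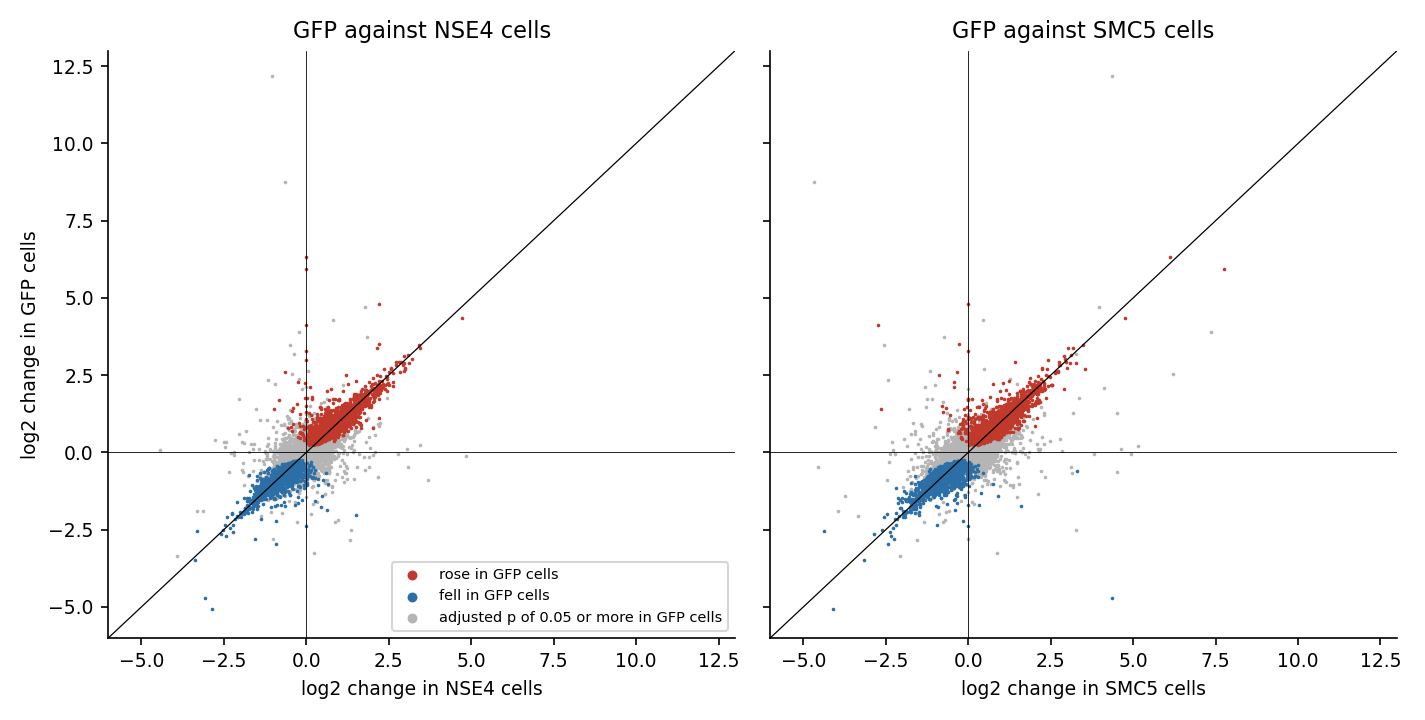
Log2 change with doxorubicin in GFP cells (vertical) against that in NSE4 cells (left) and SMC5 cells (right) over the 14447 members; loci that rose in GFP cells are red, those that fell blue, and the line marks equal changes. Most called loci lie along the line, with Pearson's r of 0.808 and 0.785 over all members.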

How the data were processed

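The deposited table gives FPKM values, which the authors made with TopHat and Cufflinks per the submitters' processing notes; versions, genome build and annotation are not given in the sources used here. Depth was estimated from the FPKM worth of 1 fragment in genes with 1 annotated transcript of at least 1500 bases. The search began at the same depth for each library and used annotated lengths, so the estimates are rough. The doxorubicin-treated SMC5 columns (Pearson r 0.99943, 1091 identical values) were averaged into 1 sample. All 6 groups, 11 samples, entered 1 fit of log2(FPKM + 1) with limma 3.58.1 (R 4.3.3), with a variance trend and 5 residual degrees of freedom. Loci with at least 1 FPKM in at least 2 samples were tested (15833), with Benjamini-Hochberg adjustment, a threshold of 0.05 and a check on simulated data. Members and gene lists were chosen with earlier results of these data known. List members whose locus names another coding gene were left out. Named genes are the 15 largest rises and falls among called, single-symbol coding genes without overlap and averaging 5 FPKM or more in either group, the 3 largest called changes per list, the 5 largest noncoding rises and falls, drug targets, p53 genes, the plasmid genes and loci called between backgrounds. A few list members that did not pass or had a defining role were added after their values were seen. GENCODE 29 gave gene classes, lengths and GC content, and RefSeq (GRCh38.p14) the start sequences. Locus coordinates are not printed. Some genes that this rule names are not reported here. Alternatives were a replicate block, other scalings, filters, a pseudocount of 0.1, GC adjustment, the 4 GFP libraries alone, adjustment over members, 12 separate columns and leaving out each library. Libraries of the same replicate number did not deviate together (correlation of deviations −0.007 in GFP and 0.036 in NSE4 cells). Such a correlation cannot exclude that samples were paired, and the main fit left pairing out. Tables were handled in pandas 2.3.3 and numpy 2.4.6 under Python 3.11.15, and figures drawn with matplotlib 3.10.9.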

Additional observations from a re-analysis of the deposited data

Results flagged for a closer look

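The doxorubicin response of 6 member loci was called different between GFP cells and another background. The test was that of the difference itself in the fit over all samples (limma, adjusted p under the threshold). Differences are GFP minus the other background on the log2(FPKM + 1) scale. Against NSE4 cells they were 6.33 for AC032044.2 (adjusted p = 1.53e-05), 5.95 for SNORD91A (1.53e-05), 3.27 for AC073107.2 (0.00853) and 2.99 for AC068580.1 (0.0336). These 4 loci were above 0 in both doxorubicin-treated GFP libraries and listed at 0 in both PBS-treated GFP libraries and all 4 NSE4 libraries. They became members only through the doxorubicin-treated GFP libraries. Groups listed at 0 throughout add no spread, which lowers the SE behind these p-values. A listed 0 can be a failed estimate, which was not tested, so these calls do not establish a difference. AC243773.3, which is not a member, was also called against NSE4 cells (2.99, adjusted p = 0.0317). Against SMC5 cells they were 3.27 for AC073107.2 (0.0204), listed at 0 in all 4 SMC5 columns, −3.91 for SVIL-AS1 (0.000934) and −4.95 for the AL360181.1,BANF1P2 locus (0.000934). At the last 2 the rise was in the doxorubicin-treated SMC5 columns, which counted as 1 sample: 65.9 and 70.1 FPKM at AL360181.1,BANF1P2, against 1.23 and 1.60 FPKM in doxorubicin-treated GFP cells.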

How the results depend on the processing

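Of 2616 rises and 2210 falls among members, 1681 and 1421 were called in a fit of the 4 GFP libraries alone. With 1 library left out there were between 1402 and 2083 rises and between 1222 and 1504 falls. Rises made up 54.7% of calls over all loci tested, 48.8% under quantile normalization, 50.3% under median-of-ratios scaling and 60.8% without doxorubicin replicate 1. With a replicate block 2729 loci rose and 2293 fell, against 2691 and 2228 without it over all loci tested. The counts of loci that differ between backgrounds are small and depend on the setting. Against NSE4 cells 5 of all loci tested were higher, with AC243773.3 among them, and 0 lower (454 with an unadjusted p under 0.05, limma). With the block 2 were higher, with a pseudocount of 0.1 2, with FPKM of at least 5 2, with no filter 30 higher and 41 lower, with 12 columns 3 lower, and with 1 library left out 3 to 10 higher and 0 to 3 lower. Against SMC5 cells 1 locus was higher and 2 lower. With the block, a pseudocount of 0.1 or FPKM of at least 5, 0 were higher, and the block gave 3 lower and FPKM of at least 5 gave 1 lower. With no filter 31 were higher and 400 lower, with 12 columns 5 and 78, and with 1 library left out 0 to 3 and 2 to 8. The log2 change of SMC5, −0.55, turned to 0.09 without doxorubicin replicate 2 and 0.36 without PBS replicate 1, and was −1.46 without PBS replicate 2. The cause of these shifts was not tested. With 2 libraries a group and a roughly estimated 13 to 18 M fragments each, the median SE of a log2 change was 0.16.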
